A study of Drosophila melanogaster with 2 samples.

Results

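The proneural genes and their dimerization partners were examined here as possible targets of scratch (scrt), a zinc-finger repressor of the Snail family that is made in developing neurons. The 10 genes were chosen by name and function, with earlier results of these data known. They are the achaete-scute complex genes ac, sc, l(1)sc and ase, and the atonal-family genes ato, amos and cato. The others are the neurogenin-related gene tap and the partners da and emc. Peaks were assigned to a gene when the summit lay in the gene body or within 10 kb of it, and the intergenic enhancer region of the achaete-scute complex on X was counted whole. By this rule 12 of the 6407 peaks of the thresholded list, called optimal here, and 35 of the 30000 peaks of the pooled list lay at these loci.

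The libraries were scrt chromatin immunoprecipitations from whole embryos of mixed sex, collected at 4 to 24 h, of a fly line that stably expresses scrt carrying GFP at its C terminus. The 2 biological replicates, numbered 3 and 4, make up a single group, so no condition is compared with another. Their description calls them input controls whereas their antibody label names scrt, and they were treated as immunoprecipitations. Signals come from all cells of the embryo, and a site used in few cells cannot be told apart from a site weakly used in many. The labels do not state which promoter drives the fusion gene, and the number of reads is unknown.

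Proneural proteins are basic helix-loop-helix (bHLH) transcription factors that give ectodermal cells the capacity to become neural precursors. They act as dimers with the broadly expressed bHLH protein Daughterless, encoded by da, and bind the short sequences CANNTG, called E-boxes. Extramacrochaetae, encoded by emc, has a helix-loop-helix but no basic region, and it holds proneural proteins and Daughterless in dimers that do not bind DNA. Snail-family zinc fingers bind CAGGTG, itself an E-box.

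At 6 of the 10 genes an optimal peak lay in reach: ase, amos, cato, tap, da and emc. The same rule called 66.5% of 13968 protein-coding genes, and 64.4% of the 9210 genes between the shortest gene of the group (712 bp) and the longest (5124 bp). The share was thus near the background. With gene bodies alone the count was 1, emc, against 15.4% of protein-coding genes. The other 4 genes, ac, sc, l(1)sc and ato, had no peak in reach even in the pooled list, which extends far below the threshold. A pooled peak was in reach of 87.6% of protein-coding genes and of 86.4% of those in the length range, and 12.4% of all genes had none. These genes do not count as 4 separate cases, because ac, sc and l(1)sc share one stretch of X.

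**Figure D1:**
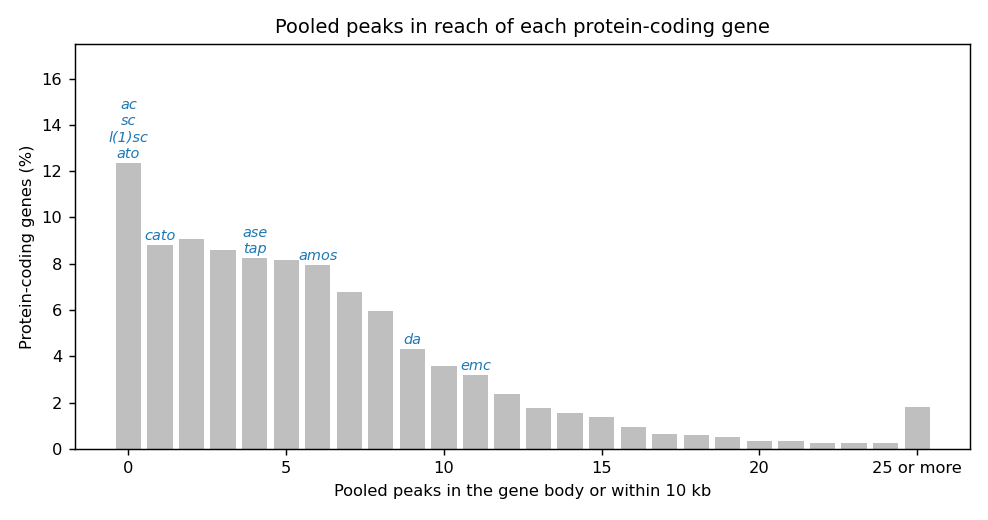
Share of protein-coding genes (y axis, percent) by the number of pooled peaks in the gene body or within 10 kb (x axis, with 25 and more combined); names mark the bar of each of the 10 genes. The genes ac, sc, l(1)sc and ato stand in the bar at 0, which holds 12.4% of genes, and emc has the most of the group with 11.

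Only 1 optimal peak lay in the achaete-scute complex, and among the best 6407 peaks of replicate 4 alone there were 0. The complex was taken from 10 kb before ac to 10 kb after ase (X, 360031 to 473176), a span of 113 kb that holds the enhancers which place ac and sc in proneural clusters. The pooled list had 4 summits in it, or 0.354 per 10 kb, against 2.15 per 10 kb over X and 2.18 over the genome. All 4 lay within 5 kb upstream of ase. Replicate 3 had 4 summits and replicate 4 had 5 in the same span. These are 0.354 and 0.442 per 10 kb, against 2.10 and 2.22 per 10 kb over X. The complex genes lie inside introns of CG32816, a gene of 154 kb on the opposite strand.

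No pooled summit was found over 103 kb, from 353563, at 496 bp from the TSS of CG43182, to 456702, upstream of ase. This interval holds ac (FBgn0000022, 370031 to 370947), sc (FBgn0004170, 396060 to 397497) and l(1)sc (FBgn0002561, 409721 to 410817), all on the plus strand, with all sequence between them. It was the 3rd longest of 5066 intervals between neighbouring pooled summits on X and the 16th longest of 29994 in the genome, where the median interval was 1502 bp. The interval holds the starts of 6 protein-coding genes, against 21 in the pooled interval of 69.7 kb around ato. Whether the number of gene starts bears on its lack of peaks was not tested. In the optimal list the interval around these genes was 118 kb, the 26th longest of 1056 on X. In replicate 3 a peak before sc divided it into 42.3 kb around ac, the 43rd longest of 4949 on X, and 60.8 kb around sc and l(1)sc, the 16th longest. In replicate 4 it was 75.5 kb, the 5th longest of 5228 on X. The reference has 0 unknown bases in it and a GC content of 39.7%. Whether its sequence could be mapped as well as the rest was not tested.

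In that interval replicate 3 had 1 weak peak and replicate 4 had 4, at different positions. Replicate 3 had a peak 154 bp before sc, of signal 46.8 and rank 15279 of 30000. Replicate 4 had none there. It had peaks with summits at 361607 and 362290, between y and ac, of ranks 13021 and 18561, one 314 bp from the start of Pgcl at rank 23468, and one at the start of y, the yellow pigment gene, at rank 17391. None of these was matched by the other replicate or by the pool. The nearest pooled summit was 16468 bp from ac and 42497 bp from sc, at rank 20531 in both cases, and 45885 bp from l(1)sc, at the optimal peak before ase. The optimal peaks that flank the complex are in CG3777, 31711 bp before ac (signal 382, rank 2651), and next to CG17896, 124 kb beyond the ac start (signal 1475, rank 348).

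**Figure D2:**
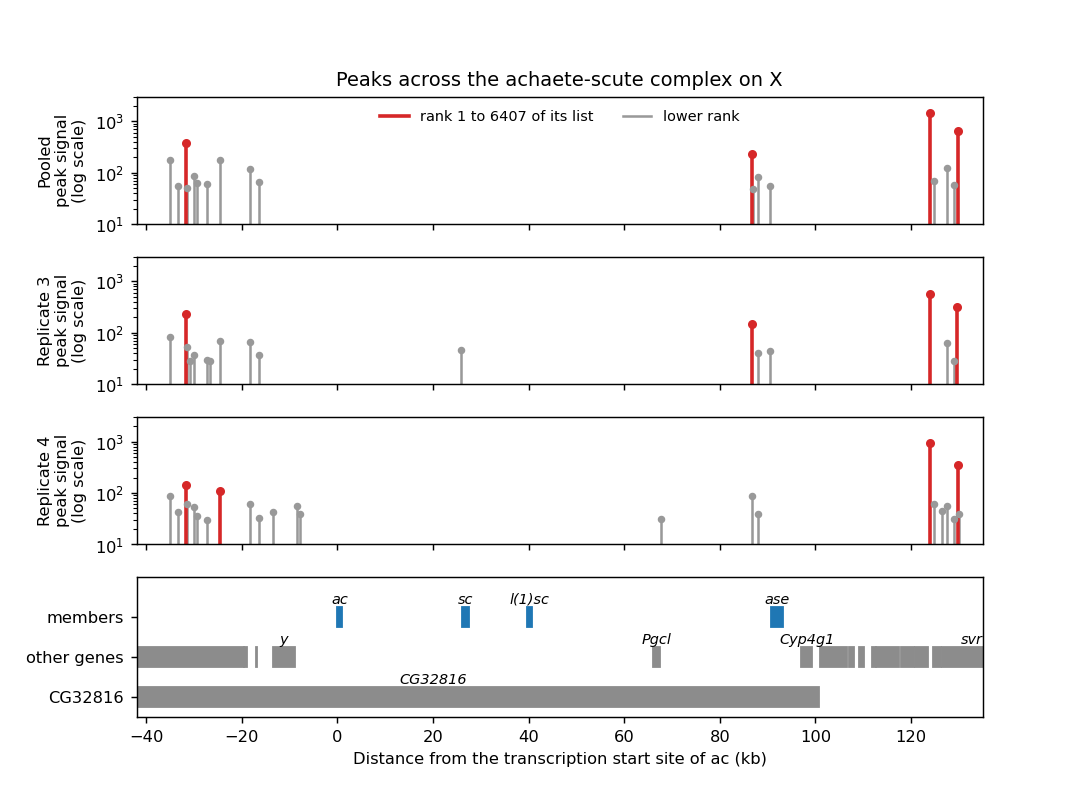
Peak signal on a log scale (y axis, each list on its own scale) against distance from the start of ac in kb (x axis), for the pooled list and for each replicate, with genes drawn to scale underneath. Red marks peaks at rank 1 to 6407 of their list and grey marks lower ranks. In the pooled list the sequence around ac, sc and l(1)sc is empty, and 4 peaks stand just before ase.

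The gene ase (FBgn0000137, X, 460747 to 463176, plus strand) encodes the bHLH protein Asense, which acts in neuroblasts and sensory precursors after they are chosen. Its optimal peak, at 456487 to 456916, had its summit 4045 bp upstream of the transcription start site (TSS), in an intron of CG32816, and the TSS of ase was the nearest one. The peak had a pooled signal of 229.9 and rank 5182. It had a signal of 152 and rank 3630 in replicate 3, and a signal of 87.7 and rank 7939 in replicate 4, beyond the first 6407. The scale of the signal is set within each list, so ranks rather than signals are set side by side. Among genes with an optimal peak in reach, 6.41% had a lower best signal. Of the 3 weaker pooled peaks before ase, the one 265 bp from its TSS had rank 25094 and was matched by replicate 3 (rank 16163) and not by replicate 4. The sequence within 75 bp of the optimal summit (chrX:456627-456777, dm6, plus strand) is shown because it is the only optimal peak in the complex. Capitals mark its single E-box, CAGTTG, which is the reverse complement of CAACTG, 15 bp from the summit.
ase: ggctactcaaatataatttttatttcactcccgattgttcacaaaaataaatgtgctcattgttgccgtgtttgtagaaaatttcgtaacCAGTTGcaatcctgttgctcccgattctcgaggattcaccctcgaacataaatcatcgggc

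The gene amos (FBgn0003270, 2L, 18596136 to 18596921, minus strand), the proneural gene of olfactory sensilla, had the strongest peak of the group, but all 3 of its optimal peaks lay at other genes. The strongest, at 18604946 to 18605308, had a signal of 1331 and rank 420, and ranked 586 in replicate 3 and 337 in replicate 4. Its summit was 8209 bp upstream of amos and 108 bp inside CG10413, in the 5' UTR. The best signal in reach of amos was above that of 82.6% of genes with an optimal peak in reach. The other optimal peaks, with summits 6857 and 6651 bp from the amos TSS on its downstream side, were 278 and 72 bp from the TSS of Pde11, a cyclic nucleotide phosphodiesterase gene. Their signals were 452 and 309.7 and their ranks 2117 and 3553. They overlap each other, with summits 206 bp apart. The stronger ranked 1349 in replicate 3 and 4632 in replicate 4, and the peaks nearest to the weaker summit ranked 2116 and 8385. No pooled summit lay closer to the amos gene body than 5303 bp.

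The strongest peak at amos was the only one of the 12 with CAGGTG within 100 bp of its summit, 36 bp away. Its site is shown as 30 bases (chr2L:18605082-18605111, dm6, plus strand), with the reverse complement CACCTG in capitals. The stronger peak on the Pde11 side is shown within 75 bp of the summit (chr2L:18589989-18590139, dm6, plus strand), with capitals for CACTTG and CATTTG, the reverse complements of CAAGTG and CAAATG.
amos, upstream site: atttactaatcaCACCTGaatgtgccctac
amos, Pde11 side: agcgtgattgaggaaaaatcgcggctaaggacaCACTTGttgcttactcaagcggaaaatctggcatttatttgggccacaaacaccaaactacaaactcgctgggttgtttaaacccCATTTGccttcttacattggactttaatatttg

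The gene ato (FBgn0010433, 3R, 8278052 to 8279274, plus strand), the proneural gene of chordotonal organs and photoreceptors, had no peak within 10 kb in any of the 4 lists. The nearest was an optimal peak 13.3 kb upstream, of signal 358 and rank 2890, which ranked 2357 in replicate 3 and 5120 in replicate 4. That summit was 214 bp from the TSS of Mcm2, a replication helicase gene. On the other side the next pooled summit left an interval of 69.7 kb around ato, the 9th longest of 7260 on 3R and the 48th longest in the genome. In replicate 4 the interval was 40.6 kb, the 41st longest on that arm. The interval of the pooled list holds the starts of 21 protein-coding genes, so its lack of peaks was shared by many neighbours.

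The gene cato (FBgn0024249, 2R, 16277685 to 16278396, minus strand), a relative of ato that acts in sensory precursors and their daughter cells, had a single peak in reach in each list. The optimal peak, at 16279907 to 16280048, had a signal of 287 and rank 3889. It ranked 4405 in replicate 3 and 4003 in replicate 4, with summits 0 and 8 bp from that of the pool. The summit was 1575 bp upstream of cato and 44 bp from the TSS of prim, which is transcribed away from cato. The peak cannot be given to cato rather than to prim from its position.

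**Figure D3:**
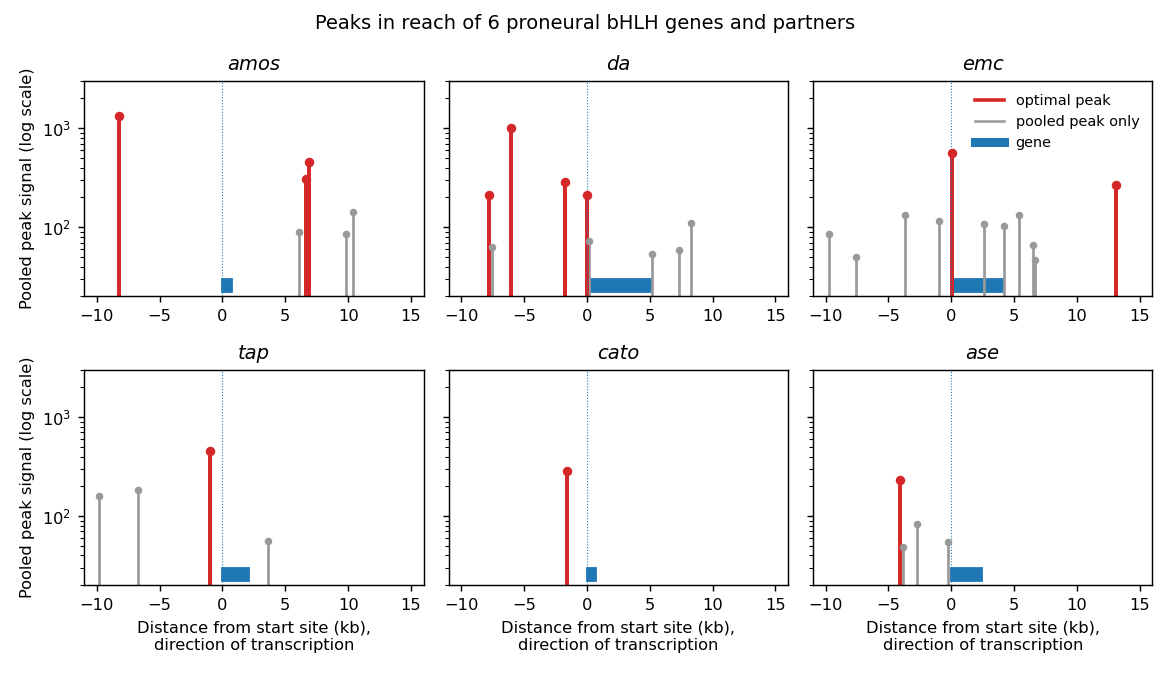
Pooled peak signal on a log scale (y axis) against distance from the transcription start site in kb, positive in the direction of transcription (x axis), for the 6 genes with an optimal peak in reach. Red marks optimal peaks, grey marks weaker pooled peaks and blue the gene body. An optimal peak stands at the start of emc, of da and, 991 bp upstream, of tap, while those of amos stand over 5 kb away.

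The gene tap (FBgn0015550, 3L, 17359682 to 17361811, plus strand), related to the vertebrate neurogenin genes and active in the nervous system, had 1 optimal peak, and that peak was nearest to tap itself. It lay at 17358575 to 17358836, in intergenic sequence 991 bp upstream of the TSS, with a signal of 458 and rank 2085. It ranked 1754 in replicate 3 and 2877 in replicate 4, and the summits of both lay within 2 bp of that of the pool. The signal was above the best of 39.0% of genes with an optimal peak in reach. The peak held 4 E-boxes within 75 bp of the summit, shown in capitals (chr3L:17358616-17358766, dm6, plus strand). These are CACGTG at 45 and 63 bp from the summit, on either side of it, CACATG at 25 bp, and CACTTG, the reverse complement of CAAGTG, at 71 bp. Of all optimal peaks, 3.43% held CACGTG within 100 bp of the summit, and 5 of 6407 (0.0780%) held it more than once within 75 bp. The count of repeated sites was not planned and takes its form from the tap sequence, so it is a description only.
tap: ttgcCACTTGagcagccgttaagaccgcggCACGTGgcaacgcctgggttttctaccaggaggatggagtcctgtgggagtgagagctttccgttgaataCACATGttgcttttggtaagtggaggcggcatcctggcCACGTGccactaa

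The remaining pooled peaks of tap were weaker. They lay 9801 and 6699 bp upstream and 3612 bp downstream of its TSS, at ranks 7994, 6821 and 24432. The peak of rank 6821, 59 bp from a TSS of CG7692, was the highest-ranked of the group that missed the threshold, with a signal of 184. One further optimal peak, of rank 2898 and 12 bp from the TSS of the neuropeptide gene Mip, lay 10004 bp from tap and so fell just outside the distance rule.

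The partner gene da (FBgn0267821, 2L, 10388105 to 10393228, plus strand) had 4 optimal peaks in reach, and 15.3% of protein-coding genes have at least 4. Its neighbourhood is dense in genes, and 3 of the 4 peaks were at other TSSs. The strongest, of signal 1005 and rank 651, was 6009 bp upstream of da, in the 3' UTR of gny and 167 bp from the TSS of CG5096, and ranked 894 in replicate 3 and 519 in replicate 4. A peak of signal 283 and rank 3976 lay 146 bp from the TSS of Cdk1, the mitotic kinase gene, 1697 bp upstream of da. It ranked 3759 in replicate 3 and 5659 in replicate 4. A weaker one, of signal 213 and rank 5738, lay in coding sequence of gny, and ranked 4449 and 7621 in replicates 3 and 4.

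The peak at the da promoter was the weakest optimal peak of the group, with a signal of 212 and rank 5758. It lay at 10387874 to 10388303, with its summit 16 bp before the TSS. The best-ranked overlapping peaks had rank 3793 in replicate 3 and 4028 in replicate 4. The summit in replicate 4 was 50 bp from that of the pool. In replicate 3 the best-ranked one was 376 bp from it, inside da, and the overlapping peak nearest to the pooled summit was at rank 20553, so the replicates did not place the da peak alike. The 100 bases before the da TSS are shown (chr2L:10388005-10388104, dm6, plus strand) because they hold the pooled summit. Capitals mark CAGATG, 7 bp from the summit, which is present in the 100 bases before 4.06% of 19630 annotated TSSs of protein-coding genes.
da: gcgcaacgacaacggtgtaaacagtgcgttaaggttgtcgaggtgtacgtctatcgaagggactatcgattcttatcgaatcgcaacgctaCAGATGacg

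The gene emc (FBgn0000575, 3L, 749400 to 753492, plus strand), which encodes the inhibitor of the proneural dimers, had the strongest promoter peak of the group. It lay at 749342 to 749522, with its summit 44 bp inside the 5' UTR, a signal of 560.1 and rank 1618. It ranked 2582 in replicate 3, with a signal of 196, and 1093 in replicate 4, with a signal of 363. The pooled and the replicate 3 summits coincided, and the summit of replicate 4 was 41 bp away. No other gene of the group had an optimal summit inside its body. The gene lies within hng3, which is transcribed from the opposite strand and has annotated starts on both sides of emc. With 11 pooled peaks in reach, emc was among the 16.2% of protein-coding genes that have at least 11. Only 1 other passed the threshold, at 762466 to 762597, 8999 bp beyond the gene, with a signal of 266 and rank 4311. It was in intergenic sequence 7002 bp from the nearest TSS, that of hng3, the farthest of the 12 peaks from any TSS, and ranked 4636 in replicate 3 and 3608 in replicate 4. The 100 bases before the emc TSS are shown (chr3L:749300-749399, dm6, plus strand) as its promoter, which the peak covers only in part. The peak summit lies past their end, 44 bp inside the gene. These 100 bases hold no E-box. Capitals mark TATAAA, which was found on either strand before 18.1% of the same TSSs.
emc: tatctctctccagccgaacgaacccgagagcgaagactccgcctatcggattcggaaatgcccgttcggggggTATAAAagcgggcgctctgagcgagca

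An optimal summit lay within 1 kb of the TSS at 3 of the 10 genes, tap, da and emc, against 25.6% of protein-coding genes. The tap summit, at 991 bp, was near the limit, and the count was 2 within 500 bp and 4 within 2 kb. Each of the 10 genes has a single annotated TSS, whereas any TSS counted for genes with several. Counted by peaks, 4 of the 12 were nearest to the TSS of a gene of the group, those of ase, tap, da and emc, and 7 lay within 500 bp of the TSS of another gene. The order of best signals was amos, da, emc, tap, cato and ase. For amos, da and cato this order rests on peaks at the TSS of another gene. Taking only peaks nearest to the gene itself, the order was emc, tap, ase and da, and replicate 4 ranked the da peak above that of ase. The median best signal was 509 over the 6 genes and 589.5 over all genes with an optimal peak in reach.

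Each of the 12 optimal peaks was overlapped, by 1 bp or more, by a peak of both replicates, as were 97.6% of all optimal peaks. Under a stricter rule, on the overlapping share of both peaks, 9 of the 12 were matched in both. With summits within 200 bp of each other all 12 were. Within the first 6407 ranks of both replicates were 10 of the 12, against 77.7% of all optimal peaks, and the exceptions were the peaks of ase and gny in replicate 4. When the replicate peak with the nearest summit was taken in place of the best-ranked one, the count was 8. The optimal list was made from these replicates, so this is not an independent measure of agreement. Of the 12 peaks, 7 ranked better in replicate 3 and 5 in replicate 4, and 51.7% of all optimal peaks ranked better in replicate 3. Of the 23 pooled peaks below the threshold, with ranks 6821 to 28990, 14 were overlapped by a peak of both replicates and 1 by none. The 14 include peaks whose best-ranked matches were the same replicate peaks that matched a neighbouring optimal peak. These were the peak of rank 28077 at ase and those of ranks 18625 and 21537 at da.

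**Figure D4:**
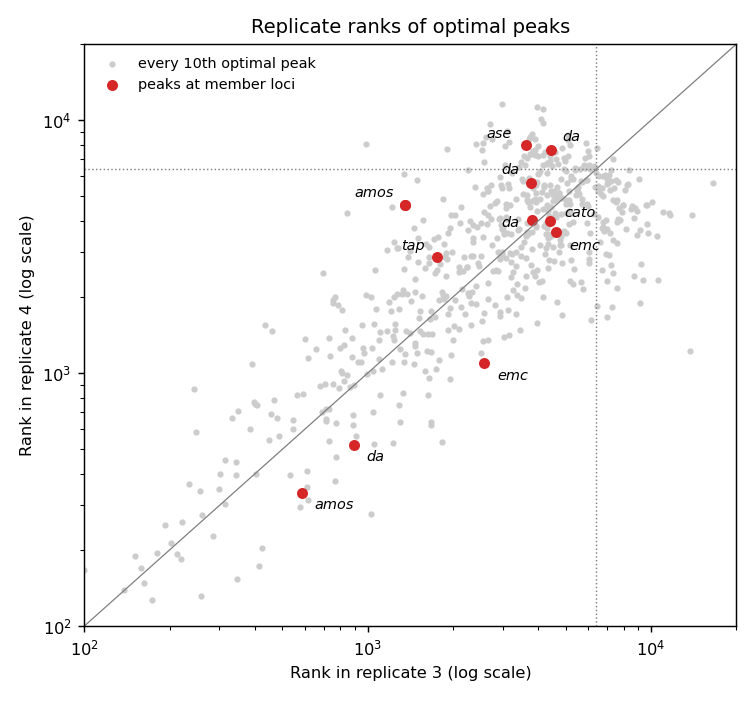
Rank in replicate 3 (x axis) against rank in replicate 4 (y axis), both on log scales, of the best-ranked overlapping peak for each optimal peak; red marks peaks at the 10 genes, grey every 10th of all optimal peaks. The line marks equal ranks and the dotted lines rank 6407. Both overlapping peaks on the Pde11 side of amos fall on the same point, and the peaks of ase and gny (labelled da) lie above the dotted line.

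Sequence at the 12 summits was searched for the 10 E-box classes on both strands within 100 bp. At least one class was found at 9 of 12, and at 65.8% of all optimal peaks. CAGGTG was found at 1 of 12, against 7.68% (95% Wilson interval 7.05 to 8.36, counting error only) of all. The longer CAACAGGTG, which contains it, was at 0 of 12 and at 1.75% of all. CAAATG was the most frequent class, at 4 of 12 against 19.1%, followed by CAAGTG at 3 of 12 against 15.4%. CAGCTG, present at 12.6% of all optimal peaks, was at 0 of 12. With 12 peaks, of which 2 overlap, these counts are a description and no test was made. The GC content of the windows ranged from 25.9% to 58.2%, with a median of 41.5%, against 39.8% over all optimal peaks.

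Related genes were counted by the same rule, in 4 lists of 68 genes in all. The lists were chosen with earlier results of these data known, so their shares are a description only. Of 30 other bHLH genes, 23 had an optimal peak in reach (76.7%), against 66.5% of protein-coding genes. Within 1 kb of a TSS an optimal peak was found at 15 of the 30, against 25.6% of protein-coding genes. Any annotated TSS of a gene counted, so genes with several could meet this rule more easily. The highest signals were 2276 at dimm, a regulator of neuroendocrine cells, 2115 at Oli, 1728 at gce, a juvenile hormone receptor gene, and 1456 at crp, while Hand and HLH4C had none. Of 12 bHLH repressor genes, all 12 had an optimal peak in reach, against 66.5% of genes. Of these, 7 are Enhancer of split genes, which lie in one cluster and share peaks: E(spl)m7-HLH and E(spl)m8-HLH have the same best peak of 1092, and E(spl)mgamma-HLH and E(spl)mbeta-HLH the same one of 762. These lists differ from the proneural genes in length, with medians of 6991 bp for the other bHLH genes and 1159 bp for the repressors, against 1331 bp for the proneural group and 2165 bp over all genes.

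Among 15 genes that act in sensory organ precursors, 12 had an optimal peak in reach (80.0%), against 66.5% of protein-coding genes. The 12 were led by scrt itself (4878), chn (3614), sca (997) and cpo (918). The flies also carry the scrt fusion gene, and its part in the signal at scrt was not tested. No optimal peak was in reach of Brd and Delta. The remaining uncalled gene, named after its values were seen, was sens, which encodes the zinc-finger protein Senseless of sensory precursors. Of 12 genes known to act on achaete-scute expression, 9 had one, led by ush (7121), a cofactor of the GATA factor Pannier, then H (4970), osa (1954) and Chi (939.9), and caup, mirr and, named after its values were seen, run had none. The peak in reach of H was not within 1 kb of its TSS. Genes of both lists are long, with medians of 19124 and 15533 bp, so more sequence was in reach. A pooled peak was in reach of every gene in these lists and of every bHLH repressor gene. Of the 30 other bHLH genes, 1 had none, Hand. Without a pooled peak in reach were 4 of the 10 proneural genes and partners, against 12.4% of all protein-coding genes. Of these 4, ac, sc and l(1)sc share the same interval on X, so they are not separate cases. Within 1 kb of a TSS, an optimal peak was found at 6 of the 12 bHLH repressor genes, against 25.6% of protein-coding genes. The same held for 9 of the 15 precursor genes and 5 of the 12 regulator genes. Any annotated TSS counted here too. No test was made of these differences.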

How the data were processed

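Peaks and not reads were analysed. Per the file listing deposited with the samples, peaks of replicate 3, replicate 4 and their pool were derived from the alignments and 1 further file as input for an irreproducible discovery rate (IDR) analysis on dm6, and the optimal list was derived from these 3 lists. The further file is not named as a control there, and was taken for one because the control-normalized tracks derive from it too. The caller, its threshold and the number of reads: not given in the sources used here. Signal is the authors' own enrichment value for each deposited peak and ran from 193 to 10013 in the optimal list. Because 81.3% of optimal peaks share the highest deposited −log10 q-value, 4.02, that column was left aside. The 6407 optimal peaks are the first 6407 of the pooled list by signal. The deposited summit offset gave each summit.

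Genes came from Ensembl release 115 and sequence from RefSeq Release 6, the same coordinates as dm6; 0 of 96407 peaks ran past a chromosome end. Coordinates are 1-based. Replicate matches overlap by at least 1 bp, and the best-ranked match is given. Counting rules were checked on planted summits. With 1 group, nothing was tested and shares of all protein-coding genes serve as background. Named genes are the 10 genes, those whose TSS is nearest to a described peak, and per list up to 4 genes of highest signal and 2 without a peak in alphabetical order. The genes and lists were chosen with earlier results of these data known. Of 68 listed genes, 3 were matched by a synonym. Alternatives were other distances, peak lists, overlaps and motif windows. The age label holds an implausible number, so collection times come from the source name. Tables were handled in pandas 2.3.3 and numpy 2.4.6 under Python 3.11.15, intervals in scipy 1.17.1, and plots in matplotlib 3.10.9.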

Additional observations from a re-analysis of the deposited data

How the results depend on the processing

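Of 79 recomputed values, 64 stayed within 1.5 times the reported one. Settings that left a gene without any optimal peak gave no best signal and are not among the 79. These were gene bodies only for ase, amos, cato, tap and da, and within 5 kb for amos. The count of 12 peaks at the loci was 1 with gene bodies only, 6 within 5 kb, 21 within 20 kb and 5 above the median optimal signal. Peaks above that median left 0 peaks in the achaete-scute complex and 2 peaks nearest to a TSS of the group. With the 6407 best peaks of a single replicate the count was 10 to 14. The complex then held 0 peaks with replicate 4 alone and 1 with replicate 3 alone. In replicate 4 the peak before ase was listed at rank 7939, beyond the first 6407. Gene bodies alone called 1 of the 10 genes, emc, against 15.4% of protein-coding genes, and the lists then gave 14 other bHLH, 2 repressor, 7 precursor and 4 regulator genes. The best signal of cato was 941 within 20 kb, and that of da was 283 within 5 kb. CAAATG was at 1 peak with a window of 50 bp. Within 20 kb, 7 of the 10 genes were called, ato included, against 82.8% of genes. No paired analysis was possible because both replicates belong to a single group. Read depth is unknown, so a missing peak means that none was listed, not that scrt-GFP was absent.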
